A study of Homo sapiens with 8 samples.

Results

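This report describes 10 S100 genes in HuCCT1 cells with and without knockdown of BEX2: S100A2, S100A4, S100A6, S100A8, S100A9, S100A10, S100A11, S100A14, S100A16 and S100P. They were chosen as the probes carrying those gene names, 10 of 34809 gene names on the array, and 8 of the 10 passed the filter on low signal and were tested among 20464 genes. HuCCT1 is an established line of human intrahepatic cholangiocarcinoma, a cancer of the bile duct. Its RNA was measured with 4 short hairpin RNA vectors, 2 arrays each: shControl and shNontarget, which the labels call control, and shBEX2-1 and shBEX2-2, which they call BEX2 knockdown. All 8 samples share the parent line and the introduction of a hairpin vector, and the study describes a single control hairpin, against luciferase, without saying which of the control vectors that is. Nothing in the labels tells if replicate arrays were grown as independent cultures, so each p-value measures only the spread between these samples, which may be technical. The methods describe retroviral hairpins and list a pair of BEX2 target sequences that, read on opposite strands, cover nearly the same stretch, so the knockdown vectors may not be independent in their target. All arrays were on 1 slide, with the control arrays in one row and the knockdown arrays in the other, so row and group cannot be told apart.

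S100 proteins are small, and most are calcium sensors. They carry a pair of EF-hands, helix-loop-helix folds that in most members, though not all, hold calcium in the loop. Most work as dimers, and in most members calcium opens a face that binds a partner such as an annexin or a cytoskeletal protein. Several are also released and bind receptors such as RAGE. Most of the family's genes lie together on chromosome 1 in the band 1q21, and raised S100P, S100A4 and S100A6 have been described in biliary and pancreatic cancers.

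In RefSeq (GRCh38.p14) 9 of the 10 genes lay on chromosome 1, from S100A10 at chr1:151982915-151993859 to S100A14 at chr1:153614255-153616325, and S100P lay at chr4:6693878-6697170. All 11 probes carried a RefSeq accession whose current symbol was the name on the array. The array's probes are 60-base sequences, and those below are shown because their placement bears on how the values can be read. They are written 5′ to 3′ as the scanner files give them, and capitals mark the 36 bases, 25 to 60 of the probe, that on translation match the EF-hand loop.
S100A11, chromosome 1 probe: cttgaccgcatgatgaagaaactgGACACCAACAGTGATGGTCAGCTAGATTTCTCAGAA
S100A11, chromosome 7 probe: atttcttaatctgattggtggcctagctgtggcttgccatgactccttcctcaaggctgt
S100A6 probe: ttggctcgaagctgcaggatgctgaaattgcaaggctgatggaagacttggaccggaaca
S100A9 probe: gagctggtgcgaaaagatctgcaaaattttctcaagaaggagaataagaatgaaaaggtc
The array annotation (hg19) placed the first S100A11 probe at chr1:152005219-152005278, minus strand, and the second at chr7:35209069-35209128, plus strand. RefSeq lists a pseudogene, S100A11P2, on chromosome 7, so transcripts of that copy and of S100A11 may share the second probe. The longest run of bases common to both S100A11 probes was 6. The annotation gave no position for the S100A6 and S100A9 probes.

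Values below are log2 processed intensity minus the array's 75th percentile of it, called the level here. A gene is called changed at an adjusted p under 0.05 (limma, Benjamini-Hochberg over all genes tested). The 75th percentile lay between 441 and 838 intensity units, the share of spots well above background ran from 59.8% to 64.6%, and none was saturated.

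BEX2, the target of the hairpins, was measured first. Its level was -3.36 and -3.91 on the shControl arrays, -2.70 and -3.77 on the shNontarget arrays, -5.21 and -5.54 on the shBEX2-1 arrays, and -4.92 and -4.60 on the shBEX2-2 arrays. The groups did not overlap, and BEX2 fell by 1.63 on the log2 scale (SE 0.32, limma adjusted p = 0.0116). Its probe was well above background on the shBEX2-2 arrays but not on the shBEX2-1 arrays, whose values only set an upper limit, so the fall is as measured and not an exact size. The bile duct and glandular keratins KRT7, KRT18 and KRT19 and the adhesion gene EPCAM were well above background on all 8 arrays.

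None of the 8 S100 genes tested was called higher or lower in BEX2 knockdown than in control, while 12.9% of all genes tested were called, 6.68% higher and 6.25% lower. With background correction by normexp, 63.5% of all calls were higher, against 51.6% here, and again no member was called. The members' log2 fold changes ran from -0.39 for S100P to 0.35 for S100A4, 3 above 0 and 5 below, and their median was -0.12 against 0.03 for all genes tested. Every 95% confidence interval of this comparison lay within a change by 1 on the log2 scale either way. In other fits some were wider. Against the shNontarget arrays alone, those of S100A2, S100A10, S100A11, S100A16 and S100P passed a change by 1. Some also did for a single hairpin against the control vectors, that of S100A11 reaching -1.28 for shBEX2-2. The control and knockdown arrays overlapped for all 8 members, whereas they did not overlap for 22.1% of all genes with 8 values.

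**Figure D1:**
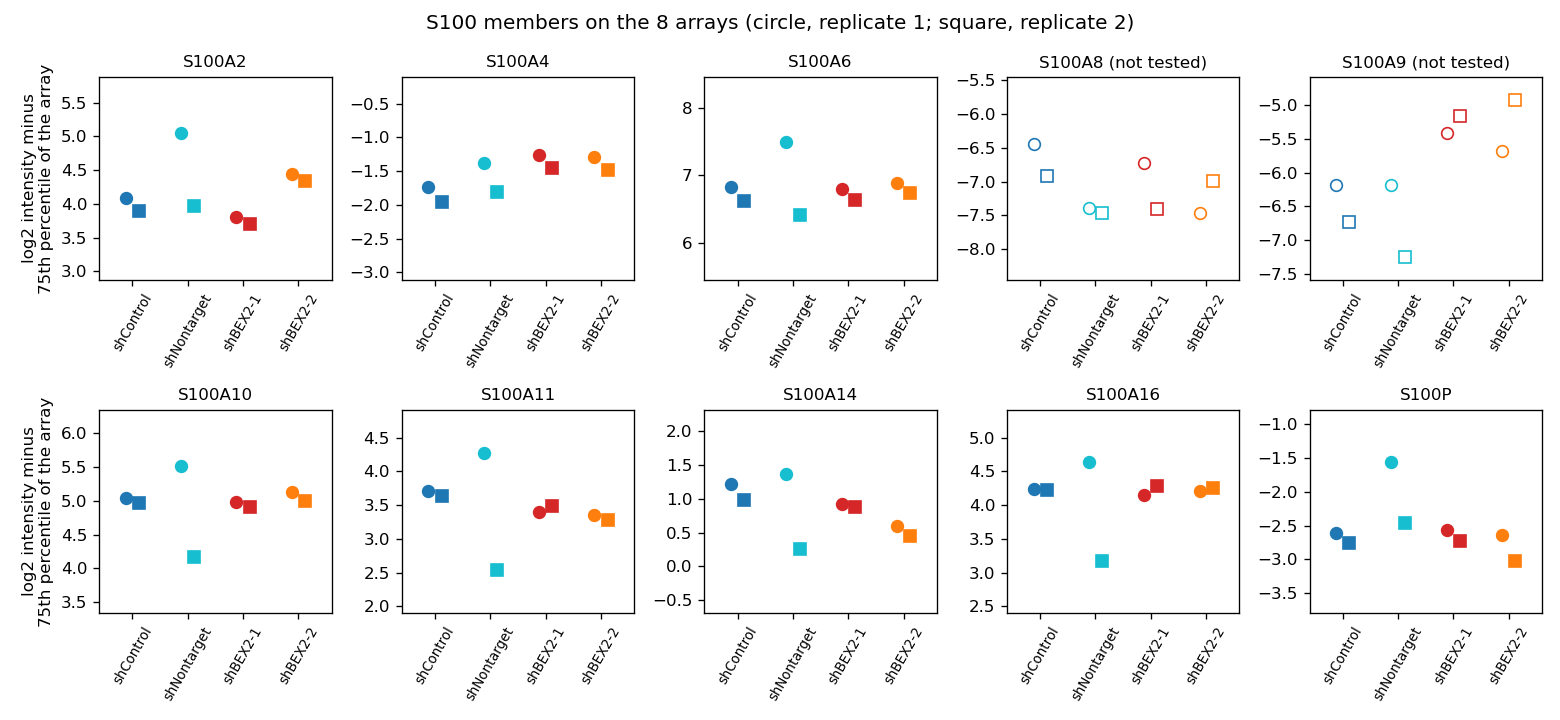
Level (log2 intensity minus the array's 75th percentile) of the 10 S100 genes on each array, 1 panel a gene, 2 arrays a vector, each panel spanning 3 log2 units; open symbols mark the genes that did not pass the filter. The 2 shNontarget arrays lie far apart for S100A11 (4.27 and 2.54), while the 2 arrays of the other vectors lie close together.

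S100A10 and S100A11 are the annexin-binding members: S100A10 pairs with annexin A2 in a complex that binds plasminogen and tissue plasminogen activator at the cell surface, and S100A11 binds annexin A1. The level of S100A10 was 5.04 and 4.97 on the shControl arrays, 5.52 and 4.17 on shNontarget, 4.98 and 4.91 on shBEX2-1, and 5.13 and 4.997 on shBEX2-2. All 4 knockdown values lay inside the range of the control values. The difference was 0.08 (SE 0.25, limma adjusted p = 0.874, 95% interval -0.49 to 0.66). The chromosome 7 probe of S100A11, the brighter of its probes, read 3.71 and 3.64 on shControl, 4.27 and 2.54 on shNontarget, 3.39 and 3.49 on shBEX2-1, and 3.36 and 3.28 on shBEX2-2. The knockdown values again lay inside the control range, below both shControl arrays and between the shNontarget arrays. The difference was -0.16 (SE 0.31, limma adjusted p = 0.790). The chromosome 1 probe read 3.505, 3.31, 3.94 and 2.23 on the control arrays in the same order and 2.96, 3.04, 2.96 and 2.85 on the knockdown arrays. It too put every knockdown value between the shNontarget arrays, and its difference was -0.29 (SE 0.31, limma adjusted p = 0.598).

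S100A4 and S100A6 lie close together on chromosome 1. S100A4 binds non-muscle myosin and is known for its part in cell motility, and S100A6, or calcyclin, binds CACYBP and annexins. The level of S100A4 was -1.74 and -1.96 on shControl, -1.38 and -1.81 on shNontarget, -1.26 and -1.45 on shBEX2-1, and -1.29 and -1.48 on shBEX2-2. Replicate 1 of each knockdown vector was above every control array, and the other knockdown arrays were above 3 of the 4. The difference of 0.35 (SE 0.15) was the only one of the 8 with an unadjusted p under 0.05, which 27.8% of all genes reached. It was not called (limma adjusted p = 0.177), and the exact two-sided permutation test over the arrays gave p = 0.0857, where the smallest possible is 0.0286. The level of S100A6 was 6.83 and 6.62 on shControl, 7.49 and 6.42 on shNontarget, 6.79 and 6.64 on shBEX2-1, and 6.89 and 6.74 on shBEX2-2. The knockdown arrays lay within the control range, with a difference of -0.07 (SE 0.23, limma adjusted p = 0.877).

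S100A2, S100A14 and S100A16 are epithelial members, and S100A14 and S100A16 are known as partners that lie side by side on the chromosome. The level of S100A2 was 4.09 and 3.90 on shControl, 5.05 and 3.96 on shNontarget, 3.80 and 3.71 on shBEX2-1, and 4.45 and 4.35 on shBEX2-2. The arrays of one knockdown vector lay below all controls, and those of the other above all controls except replicate 1 of shNontarget. The difference between the groups was -0.17 (SE 0.29, limma adjusted p = 0.745). The level of S100A14 was 1.22 and 0.99 on shControl, 1.37 and 0.26 on shNontarget, 0.92 and 0.88 on shBEX2-1, and 0.59 and 0.46 on shBEX2-2. Every knockdown value was below both shControl values and above replicate 2 of shNontarget, and the difference was -0.25 (SE 0.24, limma adjusted p = 0.561). S100A16 read 4.24 and 4.23 on shControl, 4.65 and 3.17 on shNontarget, 4.16 and 4.28 on shBEX2-1, and 4.21 and 4.25 on shBEX2-2. Apart from the shNontarget arrays these values spanned little, and the difference was 0.15 (SE 0.28, limma adjusted p = 0.772).

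S100P, named for the placenta, is released by cells and signals through RAGE, and it binds ezrin inside them. Its level was -2.61 and -2.76 on shControl, -1.55 and -2.47 on shNontarget, -2.57 and -2.72 on shBEX2-1, and -2.64 and -3.03 on shBEX2-2. Replicate 2 of shBEX2-2 was below every control array, and replicate 1 of shNontarget was the highest of all 8. The difference of -0.39 (SE 0.27, 95% interval -0.99 to 0.21) was not called (limma adjusted p = 0.388). It was -0.13 without replicate 1 of shNontarget, -0.052 against shControl alone and -0.73 against shNontarget alone (limma adjusted p = 0.258).

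S100A8 and S100A9 form calprotectin, a calcium and zinc binder abundant in neutrophils and monocytes and also made by stressed epithelium. S100A8 was well above background on none of the arrays, at intensities of 3.78 to 8.42 on the control arrays and 3.02 to 4.94 on the knockdown arrays. S100A9 was well above background on 1 array, replicate 2 of shBEX2-2, and there in 1 of 16 spots measured over the 8 arrays. Its intensity was 4.39 to 10.3 on the control arrays and 10.4 to 20.8 on the knockdown arrays, so before scaling the groups were separated by a narrow gap. Its level was -7.25 to -6.19 on the control arrays and -5.68 to -4.93 on the knockdown arrays. The single spots overlapped in intensity: on that array they read 31.2 and 13.8, and the brightest control spot read 14.3. The size of its change was not measured, since 3 of the 4 knockdown arrays and all 4 control arrays did not measure it. With no filter on low signal, S100A9 was called (difference 1.29, SE 0.32, limma adjusted p = 0.0482), where 6.05% of 34809 genes were called and S100A8 was not (difference -0.10, limma adjusted p = 0.952). That call compares values that were mostly not well above background, so its difference is not a size of change.

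The pair of hairpins was then taken one at a time against the control vectors. No member was called for shBEX2-1, where 6.97% of all genes were, or for shBEX2-2, where 9.66% were. Nor was any called between the hairpins (0.00977% of all genes), between shNontarget and shControl (0% of all genes), or for any difference among the 4 vectors (6.76%). The largest of the differences between shBEX2-1 and shBEX2-2 was that of S100A2, -0.64 (SE 0.34, limma adjusted p = 0.858). S100A14 differed by 0.38 in the opposite direction (SE 0.35, limma adjusted p = 1.00).

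These tests rested on the spread between the shNontarget arrays, and the labels do not tell whether either is a failed or different sample, which was not tested and bears on every comparison with control. Replicate 1 minus replicate 2 of shNontarget was above 0 for all 8 members, from 0.43 for S100A4 to 1.72 for S100A11, and it passed 1 for 6 of them. In the other vectors the members' differences ran from -0.12 to 0.39. Over all genes the median difference between the shNontarget arrays was -0.10, and 34.9% of genes differed by more than 1, against 0.562% to 1.76% in the other vectors. Among the 1426 genes with a mean level of at least 3.46, where 5 of the members lie, the median difference was 0.84. The other 3 members, S100A4, S100A14 and S100P, had lower levels and differed by 0.43, 1.11 and 0.91. The part of this difference in the members' tests is shown by leaving arrays out.

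**Figure D2:**
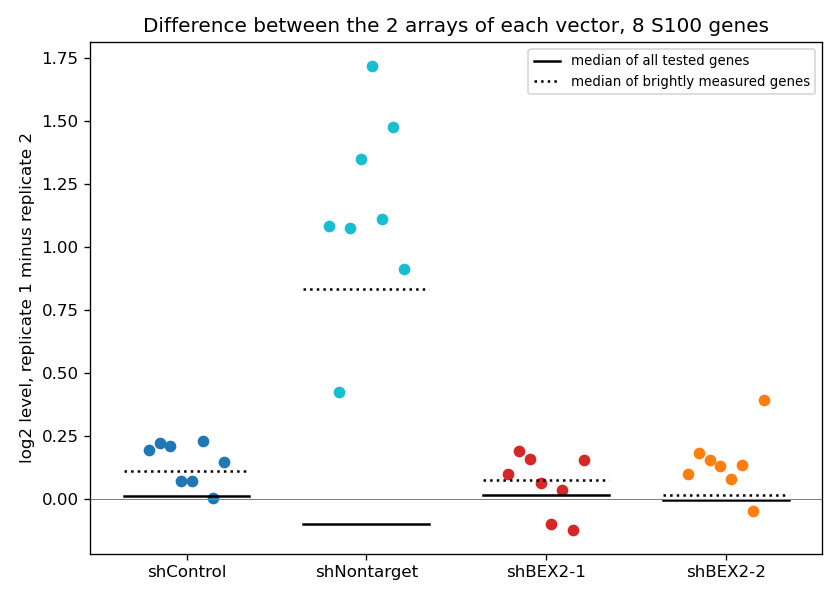
Level of replicate 1 minus replicate 2 (log2) within each vector for the 8 tested S100 genes; lines give the median over all tested genes (solid) and over the 1426 brightly measured genes (dotted). The shNontarget points lie between 0.43 and 1.72 and those of the other vectors between -0.12 and 0.39.

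Against the shControl arrays alone, 2 of the 8 members were called: S100A4 rose by 0.48 (SE 0.12, limma adjusted p = 0.0195) and S100A11 fell by 0.30 on the log2 scale (SE 0.09, limma adjusted p = 0.0339). The S100A11 value is that of its chromosome 7 probe. Its chromosome 1 probe read 3.505 and 3.31 on shControl and 2.85 to 3.04 on the knockdown arrays, and was not tested against shControl alone. At this setting 33.4% of all genes were called, so 2 of 8 is not above the background. S100A14 read -0.39 (limma adjusted p = 0.0861). Against the shNontarget arrays alone no member was called, with 1.67% of all genes called, and the difference of S100A4 was 0.23 (SE 0.20, limma adjusted p = 0.591) and that of S100A11 was -0.02 (SE 0.43, limma adjusted p = 0.983). Whether these choices differed from each other was not tested.

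Taken separately against shControl alone, shBEX2-1 gave 2 called members (43.6% of all genes) and shBEX2-2 gave 4 (44.1%). S100A4 was higher with both hairpins, by 0.49 (limma adjusted p = 0.0161) and 0.46 (0.0196), and S100A11, on its chromosome 7 probe, was lower with both, at -0.23 (0.0374) and -0.36 (0.0063). With shBEX2-2 alone, S100A2 was higher by 0.40 (limma adjusted p = 0.00876) and S100A14 was lower, at -0.58 (0.00216). With the shNontarget arrays left out, the direct comparison of the hairpins called S100A2 (-0.64, SE 0.09, limma adjusted p = 0.00464) and S100A14 (0.38, SE 0.10, limma adjusted p = 0.0404), where 14.5% of all genes were called. The means of S100A2 were 3.75 ± 0.07 (SD, n = 2) in shBEX2-1 and 4.40 ± 0.07 (SD, n = 2) in shBEX2-2, and those of S100A14 were 0.90 ± 0.02 and 0.52 ± 0.10 (SD, n = 2 each).

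**Figure D3:**
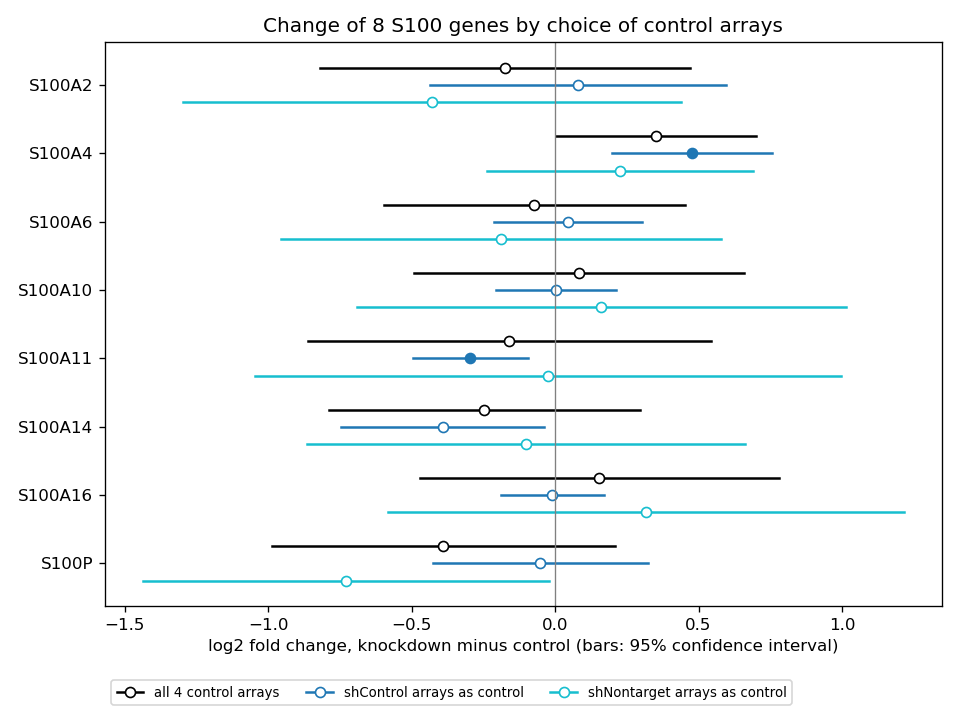
Log2 fold change, knockdown minus control, of 8 S100 genes with 95% confidence intervals, against all 4 control arrays, the shControl arrays only and the shNontarget arrays only; filled circles mark an adjusted p under 0.05. S100A4 and S100A11, the latter read from its chromosome 7 probe, are filled against shControl only.

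The rest of the S100 family was read the same way. Over all genes tested, 6.68% were called higher and 6.25% lower. The counts in this list and the later ones are to be read against those shares. Of 10 other S100 genes listed, 4 were tested and none was called, and 4 were well above background on none of the arrays: S100A1, S100A12, S100B and S100G. S100A13, a member released with growth factors, had the brightest probe of the list and a difference of 0.14 (SE 0.20, limma adjusted p = 0.697). Of the 7 fused-type genes, long proteins of the outer skin that begin with an S100 domain, only FLG, which encodes filaggrin, was tested (1.38, SE 1.00, limma adjusted p = 0.419), and the other 6 were well above background on none of the arrays.

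Of the annexins, the calcium-dependent membrane binders that are partners of S100A10, S100A11 and S100A6, 10 were tested, 1 was called higher and none lower, with a median of 0.01. ANXA10, an annexin expressed in the stomach, had a level between -1.99 and -0.39 in control and between 0.51 and 0.75 in knockdown. It rose by 2.07 (SE 0.32, limma adjusted p = 0.00450). ANXA2, the partner of S100A10 and the brightest of the list, read 6.001 to 6.81 in control and 6.88 to 6.95 in knockdown. These ranges did not overlap, but the difference of 0.52 was not called (SE 0.18, limma adjusted p = 0.101). ANXA1, the partner of S100A11, differed by 0.02 (SE 0.20, limma adjusted p = 0.965). Nearest the threshold without a call were ANXA4, at -0.70 (SE 0.20, limma adjusted p = 0.0513), and ANXA6, at 0.72 (SE 0.21, limma adjusted p = 0.0555).

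Of the cell-surface receptors, none of 6 tested was called. AGER, which encodes RAGE, differed by -0.23 (SE 0.44, limma adjusted p = 0.787), TLR4, a receptor for calprotectin, by 0.85 (SE 0.46, limma adjusted p = 0.274), and ALCAM, the brightest, by -0.33 (SE 0.28, limma adjusted p = 0.507). Of the intracellular targets reported here, 6 were tested and 1 was called, higher. EZR, which encodes ezrin, the linker of membrane and actin that S100P binds, rose by 1.01 (SE 0.18, limma adjusted p = 0.00900), from 2.84 to 3.76 in control to between 4.28 and 4.34 in knockdown. CACYBP, the calcyclin-binding protein, read 0.82 (SE 0.24, limma adjusted p = 0.0512), and AHNAK, the scaffold bound by S100A10 and annexin A2 and the brightest of the list, read 0.04 (SE 0.20, limma adjusted p = 0.931).

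The plasminogen system, which the S100A10 complex serves as a surface receptor, had 4 genes tested and reported here, of which 2 were called, both higher. PLAT, the tissue plasminogen activator, rose by 1.32 (SE 0.21, limma adjusted p = 0.00495), from 2.02 to 2.81 in control to between 3.57 and 3.87 in knockdown. SERPINB2, the inhibitor PAI-2, rose by 2.81 (SE 0.26, limma adjusted p = 0.000822), from -1.32 to -0.86 in control to between 1.20 and 2.28 in knockdown. PLAU, the urokinase, which was the brightest of the list, read -0.21 (SE 0.14, limma adjusted p = 0.394). PLAUR read 0.06 (SE 0.19, limma adjusted p = 0.867). PLG, the plasminogen gene, was well above background on only 2 arrays and was not tested.

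**Figure D4:**
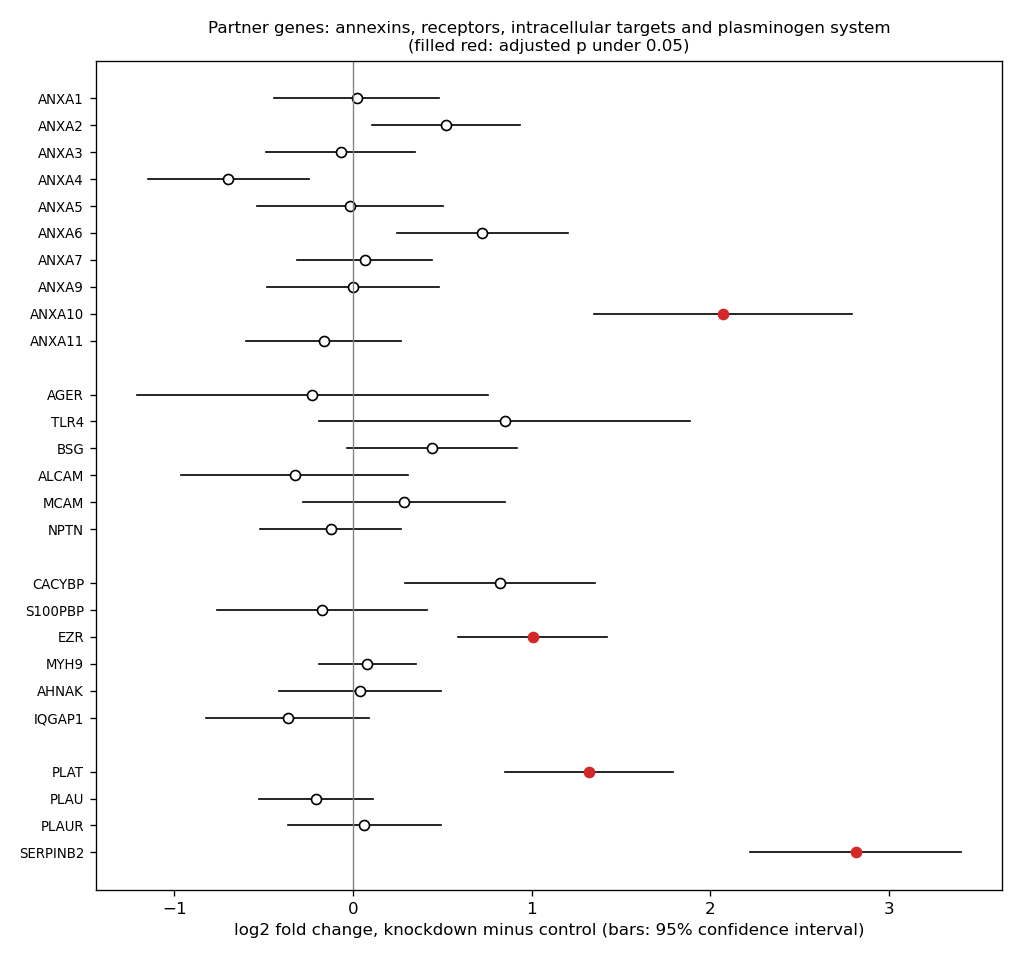
Log2 fold change, knockdown minus control, with 95% confidence intervals for annexins, S100 receptors, intracellular S100 targets and the plasminogen system; filled red circles mark an adjusted p under 0.05. The filled circles, ANXA10, EZR, PLAT and SERPINB2, lie above 0.

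Of 12 other EF-hand genes tested, 2 were called higher and none lower: CALM3, a calmodulin gene (1.10, SE 0.23, limma adjusted p = 0.0162), and CALML3, a calmodulin-like gene of epithelia (0.98, SE 0.21, limma adjusted p = 0.0183). CALM2, whose probe was the brightest, differed by 0.05. The cornified envelope genes that share 1q21 with the S100 genes had 5 of 13 tested: SPRR2A, a cross-linked envelope protein, rose by 1.86 (SE 0.49, limma adjusted p = 0.0384) and 4 were not called, SPRR1A, the brightest, at -0.10.

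Marker genes were read beside these values. Of the 7 biliary and glandular markers, KRT8 rose by 1.02 (SE 0.22, limma adjusted p = 0.0165) and 6 were not called, KRT7, the brightest, at 0.11. Of 4 squamous markers tested, KRT6A was called higher and DSG3 lower. KRT6A was well above background on no control array and all 4 knockdown arrays, and its level was -6.01 to -5.38 in control and -4.09 to -3.66 in knockdown (limma adjusted p = 0.00207). The measured difference of 1.78 depended on the background correction, being 0.64 with normexp. DSG3 fell by 0.63 on the log2 scale (SE 0.15, limma adjusted p = 0.0227), while KRT5 was well above background on none of the arrays and KRT14, the brightest, read -1.24 (SE 0.49, limma adjusted p = 0.139). Of 4 myeloid markers tested, CD14 rose by 0.54 (SE 0.13, limma adjusted p = 0.0295) and CD68, the brightest, by 0.99 (SE 0.28, limma adjusted p = 0.0474). PTPRC (0.49, limma adjusted p = 0.349) and CSF1R (-0.28, limma adjusted p = 0.754) were not called. The summed level of the 8 myeloid markers on the array, in multiples of the 75th percentile, was 0.917 to 1.12 in control and 1.31 to 1.93 in knockdown. That sum includes CD14 and CD68 and is not separate from their calls. The sums of the other marker lists overlapped between control and knockdown. The biliary and glandular sum was 632 to 894 in control and 854 to 1021 in knockdown. In the same order, the squamous sum was 0.651 to 1.36 and 0.437 to 0.875. The fibroblast sum was 0.987 to 1.19 and 0.558 to 1.66, and the hepatocyte sum 3.997 to 8.32 and 6.86 to 7.15. FCGR3A and S100A12 were well above background on none of the arrays and ITGAM and MPO were so on 1 array each. The part of myeloid RNA in the S100A9 values was not tested. None of 2 fibroblast and 2 hepatocyte markers tested was called, COL1A2, COL3A1, ALB and TTR were well above background on none of the arrays, and the brightest were LUM (-0.03) and SERPINA1 (0.08).

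Of the 12 genes called in these lists, PLAT and SERPINB2 kept their call under every alternative. KRT6A kept its call under those run for it, but was not tested where genes had to be well above background on every array. KRT6A passed the filter on the knockdown arrays alone, so that alternative could not check its call. Under the other alternatives its call still compared the knockdown arrays with control arrays on which it was not well above background. ANXA10 and EZR lost the call only against the shNontarget arrays alone (limma adjusted p = 0.0503 and 0.106). The other 7 lost it there too (0.131 for CALM3, 0.164 for CALML3, 0.287 for SPRR2A, 0.0711 for KRT8, 0.177 for DSG3, 0.252 for CD14 and 0.153 for CD68) and when single arrays were left out. DSG3 read -0.25 with normexp (limma adjusted p = 0.107), and CD68 was not called with quantile normalization (0.0510) or without the trend (0.0573). With no filter on dim probes, SPRR2A (limma adjusted p = 0.0637), DSG3 (0.0584) and CD68 (0.0728) were not called. SPRR2A was also not called with the probes of a gene averaged (0.0506). With single arrays left out, the arrays that ended the call for CALML3 (limma adjusted p 0.0523 to 0.0637) were each shControl and each shBEX2-2 array. For CD14 (0.0602 to 0.0995) and CD68 (0.0736 to 0.140) they were each shControl and each knockdown array. For SPRR2A (0.0539 to 0.108) they were every array but replicate 1 of shNontarget, and for DSG3 (0.0558 to 0.0739) the shControl and shBEX2-1 arrays and replicate 2 of shBEX2-2. For CALM3 (0.0561 to 0.0598) they were the shBEX2-2 arrays, and for KRT8 (0.0551 to 0.0554) replicate 1 of each knockdown vector.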

How the data were processed

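Total RNA of HuCCT1 cells was labelled with Cy3 and hybridized to Agilent arrays of design 028004. Per the file headers and labels, the authors deposited Feature Extraction 10.7.3.1 output, whose processed intensity is background-subtracted and detrended but not scaled between arrays, and which has low values replaced by a surrogate (19.9% to 25.9% of spots). The deposited series table held the same intensities to within 0.497%. Control and outlier spots were left out, log2 intensities were centred on each array's 75th percentile, replicate spots were averaged, and each gene was read from its brightest probe among those that the scanner software marked well above background on 4 or more of the 8 arrays. Tests used limma 3.58.1 in R 4.3.3 (lmFit, eBayes with trend), two-sided, with Benjamini-Hochberg adjustment. They were also run on simulated data that gave a gene the same spread on every array. The wider spread of the shNontarget arrays was not simulated, so that run does not bear on it. The 4 control and 4 knockdown arrays were compared, then vectors. Precision is limited by the number of arrays. The named genes were the 10 members, BEX2, and in each list every called gene and the brightest; the others named were chosen after their values were seen. The members and lists were chosen with earlier results of these data known. The rank product test of the study's methods was not run; it permutes genes. Some genes of the lists are not reported here.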

Additional observations from a re-analysis of the deposited data

Results flagged for a closer look

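S100A2 on replicate 1 of shNontarget stood apart from the other control arrays. Its level was 5.05, against 3.90 to 4.09 on the other 3, and the gap to the nearest array was 0.831 of the whole range, above Dixon's 95% critical value for 4 arrays. It was the only one of 16 groups of 4 arrays looked at (8 genes, control and knockdown) to pass, and chance alone flags about 1 in 20. The same array also read highest of the 4 control arrays for the other 7 members tested.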

How the results depend on the processing

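No member was called in the comparison of BEX2 knockdown with control under 17 of 21 alternatives. The count was 1 with no filter on dim probes (S100A9), 2 against shControl alone and 1 by the methods' t-test at an unadjusted p under 0.05 (S100A4; 5423 of all genes), which called 0 members after Benjamini-Hochberg adjustment. Leaving out each array in turn gave 0 to 1, the 1 being S100A4 without replicate 1 of shNontarget. For shBEX2-1 the count was 2 against shControl alone and 0 to 7 with an array left out, for shBEX2-2 4 and 0 to 5, for shBEX2-1 against shBEX2-2 2 and 0 to 2, for shNontarget against shControl 0 to 7 and for any difference among the vectors 0 to 8. At the highest of these, without replicate 2 of shNontarget, 10756, 11151, 3016, 9462 and 14779 of 20464 genes were called in the same order, so the members' counts are to be read against calls over much of the array. With an array left out, every count above 0 came without a shNontarget array; without replicate 1, 4722 genes were called between knockdown and control and without replicate 2, 4307, against 2646 with all arrays. Against shControl alone the log2 fold change turned sign for S100A2 (0.080), S100A6 (0.044) and S100A16 (-0.0098). With an array left out it ran from -0.30 to 0.091 for S100A2, -0.21 to 0.15 for S100A6, -0.17 to 0.28 for S100A10, -0.49 to 0.081 for S100A11 and -0.15 to 0.35 for S100A16, the turned signs coming without a shNontarget array, and none of these values was called. Other counts over all genes were 6840 against shControl alone, 341 against shNontarget alone, and 1245 and 1346 without replicate 1 of shBEX2-2 or of shControl. S100A4, S100A14 and S100P kept their sign in all 19 alternatives. The labels tie the replicate numbers to no shared culture or day, and the correlations of replicate differences between vectors were above 0.1 for 5 of 6 pairs and -0.063 for the other (highest 0.26), so a shared replicate effect is not settled; with a replicate block 2458 genes and 0 members were called. The cause was not tested. The fits with 1 array left in a vector assume that it varied like the others.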
